A study of Drosophila melanogaster with 16 samples.

Results

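Neural stem cells of the Drosophila larval brain, the type I neuroblasts (NBs), were compared after 3 h and after 1.5 h in culture. The comparison takes the 6 libraries whose count tables carry the NB label with either age, 3 libraries of 3 h and 3 of 1.5 h, out of 16 in the series. The other libraries are NBs of 5 h and ganglion mother cells (GMCs), the smaller daughters of NBs, of all 3 ages. By the labels, the larvae of every group had the same 3 transgenes: the driver ase-GAL4, the nuclear GFP reporter UAS-stinger::GFP and UAS-dcr2, which expresses Dicer-2. The driver is active in type I NBs, so the NBs called wild type in the labels also expressed Dicer-2 from a transgene. Scaled over all 16 libraries, the Dcr-2 gene was at 4178, 3942 and 4697 CPM in NBs of 1.5 h, 2865, 4270 and 5901 CPM in NBs of 3 h, and 176, 385 and 328 CPM in NBs of 5 h. The NB libraries of 5 h thus lay far below both other ages, although the labels give that group the same transgene. The cause was not tested. Brains came from wandering L3 larvae raised at 25 degrees C; NBs were sorted, kept in culture while they went on dividing, and sorted again to part NBs from new GMCs. The labels do not say whether replicates were separate cultures, and p-values here reflect only how these libraries vary, which may be technical variation. Age and flow cell coincide: all libraries of 3 h were read on one flow cell and all libraries of 1.5 h on another. An effect of age, of time since the first sort and of the sequencing run therefore cannot be told apart anywhere below.

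An NB divides asymmetrically. It keeps its identity through transcription factors such as Deadpan, Asense and Worniu, and hands Prospero, Numb and their adaptors, Miranda among them, to the daughter, which divides again and differentiates. Dissociated NBs in culture go on cycling but have lost the glial niche and the haemolymph, which in the brain supply lipid, amino acids and growth signals.

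The NB libraries of 3 h held 8160101, 10463424 and 11378787 counts in genes, and those of 1.5 h held 19485219, 16633496 and 21207182, so the 2 groups did not overlap in depth. Reads in no gene made up 17.7%, 12% and 11.8% of reads at 3 h, against 12.3%, 10.3% and 9.20% at 1.5 h. Replicate 1 of 3 h stood apart from every other NB library. On the second principal component of the 6 libraries, which carried 30.9% of the variance, it lay at -56.3 while the others lay between -6.3 and 29.6. On the first component, which carried 53.9%, it lay at -19.6, inside the 1.5 h range of -47.7 to -2.46. Replicates 2 and 3 of 3 h lay at 57.8 and 40.2 there, so only these 2 were parted from the 1.5 h libraries on that component. Replicate 1 of 1.5 h also differed more from its partners than they did from each other. Results are therefore given with and without single libraries. The sorted cells carried the NB markers: the summed level of 8 of them was 2607 to 2807 CPM at 3 h and 3519 to 4372 CPM at 1.5 h. CPM is the usual depth-scaled count, here on TMM library sizes. Summed GMC and neuron markers (7 genes) came to 250.1 to 347 CPM at 3 h and 209 to 324 CPM at 1.5 h, and these ranges overlapped. No marker of any cell type listed was at 0 in all libraries of a group. In bulk samples, fewer cells of a type and less RNA per cell cannot be told apart.

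Of 10865 genes tested with edgeR's quasi-likelihood test, 491 (4.52%) differed between 3 h and 1.5 h at a Benjamini-Hochberg adjusted p under 0.05. Of these, 354 (3.26%) were higher and 137 (1.26%) lower at 3 h, and 356 of the 491 changed at least 2-fold. The 3 values of 3 h and the 3 of 1.5 h did not overlap for 3067 genes (28.2%), with 1449 higher (13.3%) and 1618 lower (14.9%). The fit behind these counts used the 11 libraries of 1.5 h and 3 h from both cell types. The choice of libraries in the fit decided how many genes passed: a fit of all 16 libraries called 11 (0.101%), all of them among the 491, and a fit of the 6 NB libraries called 152 (1.55%), 141 of them shared. The common dispersion was 0.0532 in the fit of 11, 0.0782 in that of 16 and 0.0603 in that of 6. Single libraries moved the count as far. It was 1428 (13%) without 3 h replicate 1, where 934 of 10988 genes rose and 494 fell. It was 40 without 3 h replicate 2 and 244 without 3 h replicate 3. Among the 1.5 h libraries, it was 42 without replicate 1, 5 without replicate 2 and 230 without replicate 3. Only 4 genes, CG1673, LpR2, CG4467 and Pex7, were called in all 6 of these fits. Upper-quartile scaling, which moved the median log2 fold change of all genes to 0.16 from -0.02, called 489 higher and 23 lower, and removing each library's gene-length trend called 457 higher and 281 lower. Every call below belongs to the fit of 11 libraries unless another fit or a left-out library is named. List counts below are to be read beside the share of all genes in the same fit.

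The 4 genes that kept their call with any NB library left out were a branched-chain amino acid aminotransferase, a lipoprotein receptor, a peroxisomal import receptor and CG4467. CG1673, which the reference annotation names Bcat (chrX:13396899-13401224, BDGP6), had 30.9, 29.4 and 39.1 CPM in NBs of 3 h, against 4.19, 4.17 and 5.48 CPM in NBs of 1.5 h. Every library of 3 h was above every library of 1.5 h, with a log2 fold change of 2.84 ± 0.26 (SE; edgeR adjusted p = 0.000501). LpR2, a receptor for circulating lipoprotein (chr3R:25698727-25740465), had 19.9, 17.3 and 17.5 CPM at 3 h, against 1.40, 2.14 and 1.45 CPM at 1.5 h. The groups lay far apart and the replicates of 3 h close together (log2 fold change 3.46 ± 0.39, edgeR adjusted p = 0.00356); LpR2 was picked after its values were seen. CG4467 (chr3R:23227727-23248903) had 62.7, 82.8 and 104 CPM at 3 h, against 18.5, 23 and 25.8 CPM at 1.5 h. Its log2 fold change was 1.90 ± 0.22 (edgeR adjusted p = 0.00356), without overlap. Pex7, which brings a class of enzymes into peroxisomes (chr3L:8647145-8651011), ran the other way, with 278, 224 and 243 CPM at 3 h, against 602, 564 and 514 CPM at 1.5 h. All libraries of 3 h were below all of 1.5 h, and the log2 fold change was -1.17 ± 0.15 (edgeR adjusted p = 0.00556).

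**Figure D1:**
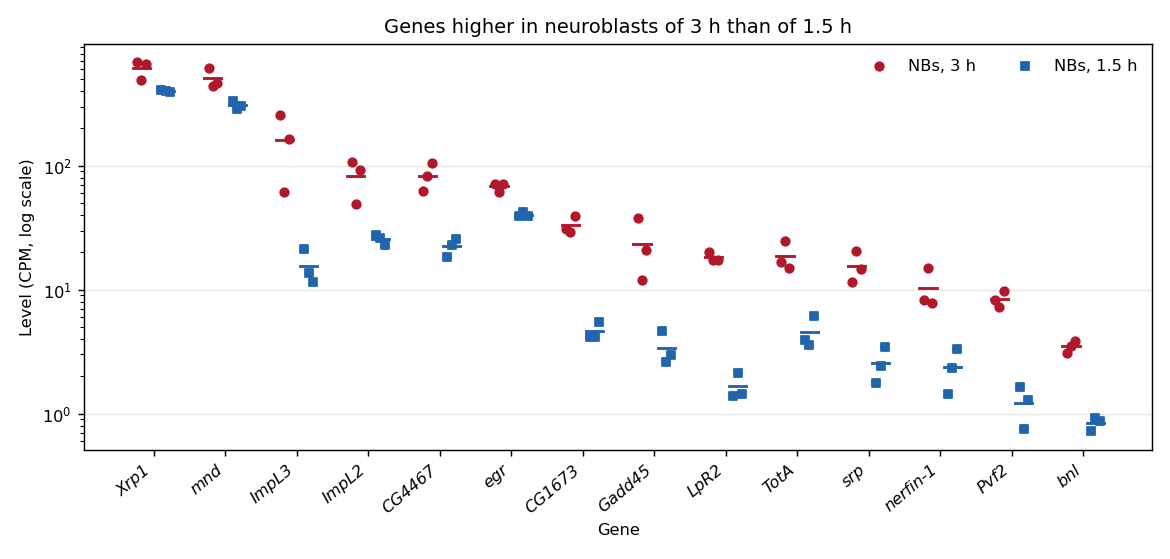
Level in CPM (log axis) of 14 genes called higher at 3 h, with 3 h (red circles) left of 1.5 h (blue squares); each point is 1 library and each bar the mean of 3. For each gene drawn, every library of 3 h lies above every library of 1.5 h, while ImpL3 and Gadd45 spread widely among the libraries of 3 h.

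Many genes of a list of NB identity were lower at 3 h. Of 23 NB identity genes, all tested, 10 fell and 0 rose, where 1.26% of all genes fell; 1 of 23 had a positive log2 fold change and the median was -0.55, beside -0.02 for all genes. In 16 of the 23 the libraries of 3 h lay wholly below those of 1.5 h, where 14.9% of all genes did. Summed, the 23 genes came to 6071 to 6900 CPM in NBs of 3 h and 8744 to 10800 CPM in NBs of 1.5 h. They were higher in GMCs, at 7650 to 8288 CPM at 3 h and 11450 to 13760 CPM at 1.5 h. As a sum the list thus does not mark NBs apart from GMCs here, and its fall is not a measure of lost NB identity. Worniu (wor), a Snail-family factor of NBs, had 229, 186 and 232 CPM in NBs of 3 h, against 435, 371 and 339 CPM in NBs of 1.5 h. The groups did not overlap and the log2 fold change was -0.82 ± 0.15 (edgeR adjusted p = 0.0132). Miranda (mira), the adaptor that carries Prospero into the daughter, had 958, 944 and 988 CPM at 3 h, against 1284, 1706 and 1412 CPM at 1.5 h. The 3 h libraries were nearly equal and all lower (log2 fold change -0.61 ± 0.15, edgeR adjusted p = 0.0408).

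The remaining NB identity genes that fell are mostly transcription factors. Klumpfuss (klu), a zinc finger factor of NB self-renewal, had 158, 154 and 156 CPM at 3 h, against 242, 377 and 254 CPM at 1.5 h. Its 3 h values were all below the lowest 1.5 h value (log2 fold change -0.90 ± 0.19, edgeR adjusted p = 0.0252). The cofactor gene nab, the nuclear receptor gene svp and the Sox genes SoxN and D had log2 fold changes of -0.81, -0.82, -0.83 and -0.69. Of apt and sna, a factor of the Snail family, the log2 fold changes were -0.67 and -1.79, and sna was low at both ages, with 2.73, 1.42 and 2.68 CPM at 3 h, against 10.7, 6.72 and 6.10 CPM at 1.5 h. Among the best-known NB genes, 3 did not pass the test: dpn (log2 fold change -0.20 ± 0.25, adjusted p = 0.699), ase (-0.08 ± 0.15, 0.825) and N, the Notch receptor (-0.10 ± 0.21, 0.838), all by edgeR. Without 3 h replicate 1 the log2 fold change of dpn was -0.54 (edgeR adjusted p = 0.0816) and that of ase -0.23 (0.278), and without 1.5 h replicate 1 that of dpn was -0.0055. For dpn, 59.28% of exon bases overlap another gene, and whether counting used strand is not given. For pros, the fate determinant, the log2 fold change was -0.50 ± 0.21 and the test was not passed (edgeR adjusted p = 0.167). All 10 NB identity calls held without 3 h replicate 1, 7 without 3 h replicate 3 and 7 without 1.5 h replicate 3. Of the 10, 1 held without 1.5 h replicate 1, and 0 held without 1.5 h replicate 2 (edgeR adjusted p 0.0858 to 0.204) or without 3 h replicate 2 (0.0731 to 0.19). In the fit of 6 NB libraries 0 of the 23 were called, with a median of -0.45, and under upper-quartile scaling 3 fell, with a median of -0.35.

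**Figure D2:**
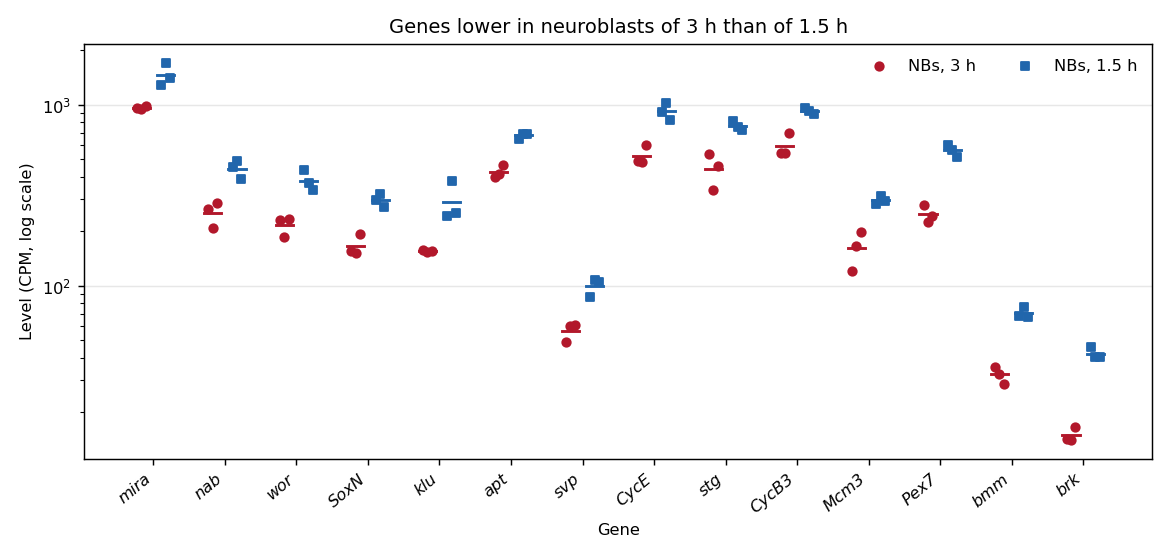
Level in CPM (log axis) of 14 genes called lower at 3 h, with 3 h (red circles) left of 1.5 h (blue squares); each point is 1 library and each bar the mean of 3. For each gene drawn every library of 3 h lies below every library of 1.5 h, as for wor at 186 to 232 CPM against 339 to 435 CPM. The libraries of 3 h spread for stg and Mcm3, and those of 1.5 h for klu.

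Fewer cell cycle genes fell. Of 66 mitosis genes tested, 5 fell and 0 rose, with a median log2 fold change of -0.29, and 25 lay wholly below, where 1.26% of all genes fell and 14.9% lay wholly below. Without 3 h replicate 1, 14 mitosis genes fell, where 494 of 10988 genes did. String (stg), the Cdc25 phosphatase that triggers mitosis, had 537, 337 and 456 CPM at 3 h, against 817, 757 and 722 CPM at 1.5 h. No 3 h library reached the 1.5 h range (log2 fold change -0.79 ± 0.17, edgeR adjusted p = 0.0247). Cyclin B3 (CycB3), the kinesin gene ncd, the Greatwall kinase gene gwl and the condensin gene Cap-G had log2 fold changes of -0.64, -0.48, -0.48 and -0.69. Of 54 DNA replication genes tested, 4 fell and 0 rose (median -0.18), and 10 fell without 3 h replicate 1. Cyclin E (CycE), which starts S phase and is also among the NB identity genes, had 489, 481 and 601 CPM at 3 h, against 915, 1021 and 827 CPM at 1.5 h. The groups did not overlap (log2 fold change -0.81 ± 0.16, edgeR adjusted p = 0.0192). Mcm3 of the replicative helicase, the kinase gene Cdc7 and the chromatin assembly gene Caf1-105 had log2 fold changes of -0.88, -0.66 and -0.85, and abo, a regulator of histone genes, had -0.59. Of these genes other than CycE, 9 of 9 held without 3 h replicate 1, 3 without 3 h replicate 3 and 1 without 1.5 h replicate 3. None held without 3 h replicate 2 (edgeR adjusted p 0.11 to 0.191), 1.5 h replicate 1 (0.0643 to 0.14) or 1.5 h replicate 2 (0.0968 to 0.208). Under upper-quartile scaling 1 mitosis gene and 1 replication gene fell, with medians of -0.10 and 0.01, so the sign of the replication median depends on the scaling.

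Metabolic genes moved in both directions, beside 3.26% of all genes higher and 1.26% lower. ImpL3, the lactate dehydrogenase (Ldh in the reference annotation), had 257, 61.5 and 163 CPM in NBs of 3 h, against 21.4, 13.6 and 11.5 CPM in NBs of 1.5 h. All 3 h libraries were higher, although they spanned 61.5 to 257 CPM (log2 fold change 3.37 ± 0.51, edgeR adjusted p = 0.00746). It was the 1 of 23 glycolysis genes that rose, and the median of that list was -0.05; without 3 h replicate 1, 2 rose and 5 fell. Brummer (bmm), the lipase that opens lipid droplets, had 35.5, 32.6 and 28.8 CPM at 3 h, against 67.7, 76.5 and 67.0 CPM at 1.5 h. The groups did not overlap (log2 fold change -1.12 ± 0.18, edgeR adjusted p = 0.00896). Of 23 amino acid stress genes, 3 rose and 0 fell: the asparagine synthetase gene AsnS (log2 fold change 1.94), the amino acid transporter gene mnd (0.72) and Gadd45. AsnS had 9.12, 24.3 and 30.9 CPM at 3 h, against 4.04, 7.12 and 5.73 CPM at 1.5 h, with replicate 1 lowest at both ages. None of 20 cytosolic tRNA synthetase genes was called, and their median was -0.15. Another lipoprotein receptor gene, LpR1, chosen after its values were seen, rose without overlap (log2 fold change 1.97 ± 0.33, edgeR adjusted p = 0.0119). Of 39 oxidative phosphorylation genes 1 fell, UQCR-C2 of complex III (log2 fold change -0.66). Among 9 genes (ImpL3, CG1673, AsnS, mnd, LpR2, LpR1, bmm, Pex7 and UQCR-C2), 9 held without 3 h replicate 1, 5 without 3 h replicate 2 and 7 without 3 h replicate 3. Of the same 9, 5 held without 1.5 h replicate 1, 3 without 1.5 h replicate 2 and 6 without 1.5 h replicate 3.

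Ribosomal protein genes gave no call, and replicate 1 of each age stood highest. Summed cytosolic ribosomal protein genes came to 73200, 35440 and 33330 CPM at 3 h, against 59190, 44890 and 38230 CPM at 1.5 h. Of 88 such genes tested 0 were called by edgeR, with a median of 0.00. Without 3 h replicate 1, 24 fell and the median was -0.53, where 494 of 10988 genes fell. That fit still holds the high replicate 1 of 1.5 h. Of 72 mitochondrial ribosomal protein genes 0 were called, and 5 fell without 3 h replicate 1. The count of oxidative phosphorylation genes that fell was likewise 12 of 39 without 3 h replicate 1. Ribosome biogenesis (44 genes), the V-ATPase (18) and cytoskeleton and adhesion (38) gave 0 calls by edgeR, with medians of -0.02, -0.08 and -0.10. Over all genes 4.52% were called in that fit. Of genes of at least 100 CPM, 0.211% rose and 1.955% fell. Counts of 0 in lists of this size are therefore not read as a result about them.

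Stress genes did not move as a block. For comparison, 3.26% of all genes rose and 1.26% fell. Gadd45, a stress gene, had 37.7, 11.9 and 20.9 CPM at 3 h, against 4.62, 2.61 and 2.99 CPM at 1.5 h. The groups did not overlap (log2 fold change 2.78 ± 0.42, edgeR adjusted p = 0.00746). Eiger (egr), the TNF ligand, had 70.8, 61.9 and 71.8 CPM at 3 h, against 39.5, 42.2 and 39.0 CPM at 1.5 h. It rose without overlap (log2 fold change 0.76 ± 0.14, edgeR adjusted p = 0.0132). Xrp1, a bZIP factor of the stress response, and TotA, a secreted Turandot stress protein, had log2 fold changes of 0.61 and 2.04. Of 28 immediate early and stress genes, egr, Gadd45 and Xrp1 rose and puc, the phosphatase induced by and acting on JNK, fell (log2 fold change -0.93). TotA was the 1 of 25 innate immunity and JAK-STAT genes that rose. Of 29 heat shock genes 2 fell and 0 rose, and 4 fell without 3 h replicate 1. Hsp68 had 101, 55.9 and 51.3 CPM at 3 h, against 129, 202 and 420.2 CPM at 1.5 h, with the 1.5 h libraries over 3-fold apart among themselves. DnaJ-1, a cochaperone gene, had a log2 fold change of -0.74. Of the 7 genes, 7 held without 3 h replicate 1, 3 without 3 h replicate 2, 3 without 3 h replicate 3, 2 without 1.5 h replicate 1 and 4 without 1.5 h replicate 3. None held without 1.5 h replicate 2 (edgeR adjusted p 0.0637 to 0.179).

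A list of ligands and receptors of PDGF/VEGF, FGF and other receptor tyrosine kinases was gathered after values were seen. Of its 17 genes tested, 5 rose (Pvf2, bnl, jeb, Ret and Tie) and 0 fell, where 3.26% of all genes rose and 1.26% fell. The list median was 0.81 and 16 of 17 were positive, beside 5186 of 10865 genes, and 75.8% of those under 5 CPM. This list leaves out Egfr, a receptor tyrosine kinase that fell (edgeR adjusted p = 0.0363). Pvf2, a PDGF/VEGF-type ligand, had 8.20, 7.31 and 9.71 CPM at 3 h, against 1.64, 0.753 and 1.29 CPM at 1.5 h. The groups did not overlap (log2 fold change 2.76 ± 0.38, edgeR adjusted p = 0.00614). Branchless (bnl), an FGF, had 3.08, 3.54 and 3.84 CPM at 3 h, against 0.722, 0.927 and 0.872 CPM at 1.5 h (log2 fold change 2.05 ± 0.32, edgeR adjusted p = 0.00973). ImpL2, a secreted antagonist of insulin-like peptides, had 107, 49.4 and 92.3 CPM at 3 h, against 27.4, 26.2 and 23.1 CPM at 1.5 h. It rose without overlap (log2 fold change 1.7 ± 0.25, edgeR adjusted p = 0.00643), but 61.9% of its exon bases overlap another gene, so part of the reads may belong to that gene. Brinker (brk), a repressor of Dpp targets, had 14.2, 14.1 and 16.5 CPM at 3 h, against 46.0, 40.2 and 40.2 CPM at 1.5 h. It fell without overlap (log2 fold change -1.49 ± 0.25, edgeR adjusted p = 0.0114). The Wnt feedback gene nkd, the netrin receptor gene unc-5 and the zinc finger gene sqz had log2 fold changes of -1.24, -1.10 and -1.14. Of 27 ecdysone response genes 3 rose (ImpL2, ImpL3 and the receptor gene DopEcR) and 1 fell (Kr-h1, with 78.55% of exon bases shared with another gene); without 3 h replicate 1, 3 rose and 2 fell. Of the 9 genes Pvf2, bnl, ImpL2, DopEcR, brk, nkd, unc-5, sqz and Kr-h1, 9 held without 3 h replicate 1, 6 without 3 h replicate 2 and 7 without 3 h replicate 3. Of the same 9, 6 held without 1.5 h replicate 1, 7 without 1.5 h replicate 3 and 0 without 1.5 h replicate 2 (edgeR adjusted p 0.0537 to 0.134).

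Of the genes of differentiation, 3 rose. Of 18 GMC fate and differentiation genes, 2 rose and 0 fell (median 0.16), where 3.26% of all genes rose and 1.26% fell. The zinc finger gene nerfin-1, which holds neurons in their fate, had 8.20, 14.8 and 7.83 CPM at 3 h, against 1.44, 2.32 and 3.32 CPM at 1.5 h. The groups did not overlap (log2 fold change 2.12 ± 0.32, edgeR adjusted p = 0.00749). Rbp9, an RNA-binding protein of the ELAV family, had a log2 fold change of 0.98. Of 27 neuron markers 1 rose (3.7%, near the share of all genes), the sodium pump subunit gene nrv3 (log2 fold change 2.53). Without 3 h replicate 1, 5 of the 27 rose. The gene elav, with 34.22% of exon bases shared with another gene, had overlapping values. They were 211, 269 and 281 CPM at 3 h, against 181, 298 and 241 CPM at 1.5 h. Of 21 temporal patterning genes Kr rose (log2 fold change 2.12) and svp and D fell; without 3 h replicate 1, 2 rose and 3 fell. Of the 4 genes nerfin-1, Rbp9, nrv3 and Kr, 4 held without 3 h replicate 1, 1 without 3 h replicate 2, 4 without 3 h replicate 3, 1 without 1.5 h replicate 1 and 3 without 1.5 h replicate 3. None held without 1.5 h replicate 2 (edgeR adjusted p 0.0559 to 0.0954). The 13 Notch target genes tested had 2 that fell (klu and stg) and a median of 0.33, of the other sign, which was -0.14 without 3 h replicate 1.

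Markers of other cell types differed in direction by cell type, beside 3.26% of all genes higher and 1.26% lower. Summed hemocyte and fat body markers came to 6.95, 14.8 and 78.4 CPM at 3 h, against 6.16, 6.14 and 8.34 CPM at 1.5 h, and the 78.4 CPM of 3 h replicate 3 was mostly Fbp1, at 62.1 CPM there. In the longer list of 14 such genes, 8 rose without 3 h replicate 1 (median 1.96), where 934 of 10988 genes rose and 494 fell. Several of these markers, and of the muscle markers below, were low genes. All genes under 5 CPM had a median of 0.71 without 3 h replicate 1 and 0.56 in the fit of 11 libraries. In that fit 5.74% of them rose and 0 fell. In the fit of 11 libraries 2 of the 14 rose (median 1.59). The 2 were srp, a GATA factor of hemocytes and fat body, with 11.6, 20.4 and 14.6 CPM at 3 h, against 1.78, 2.43 and 3.44 CPM at 1.5 h, and the serum protein gene Lsp1alpha (log2 fold change 3.65). Summed muscle markers were 5.93 to 10.9 CPM at 3 h and 3.19 to 5.65 CPM at 1.5 h, and Mhc and Mlc2, 2 of 12 in the longer list, rose (log2 fold changes 1.28 and 1.24), with 4 of 12 rising without 3 h replicate 1. Summed glia markers (5 genes, 0 called) came to 348, 316 and 397 CPM at 3 h, against 453, 406 and 381 CPM at 1.5 h, overlapping and mostly Eaat1. Of 19 genes in the longer glia list egr and wrapper rose (0.76 and 1.69) and 3 rose without 3 h replicate 1, while repo, which defines glia, was at 1.71, 2.12 and 1.52 CPM at 3 h, against 1.16, 0.811 and 0.872 CPM at 1.5 h, and did not pass. Type II and optic lobe markers (21 genes) held 2 that fell, dac and Optix (-0.81 and -0.84), and 5 that fell without 3 h replicate 1. Summed type II markers were 15.2 to 15.4 CPM at 3 h and 20.2 to 25.3 CPM at 1.5 h. The part of such cells in any result here was not tested. Of the 7 genes srp, Lsp1alpha, Mhc, Mlc2, wrapper, dac and Optix, 7 held without 3 h replicate 1, 3 without 1.5 h replicate 3, 1 without each of 3 h replicates 2 and 3, 1 without 1.5 h replicate 1 and 0 without 1.5 h replicate 2 (edgeR adjusted p 0.0537 to 0.196).

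**Figure D3:**
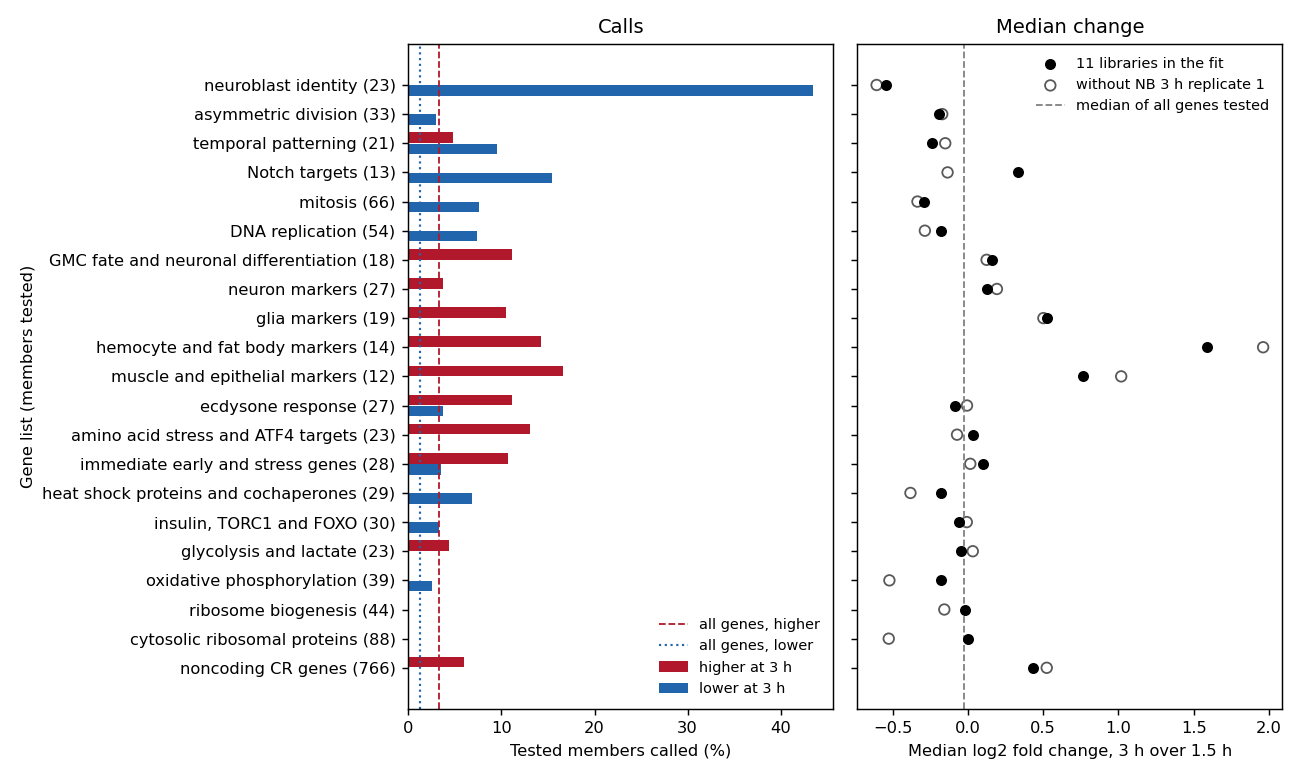
Left, percentage of tested members of 21 gene lists called higher (red) or lower (blue) at 3 h, with dashed and dotted lines at 3.26% and 1.26% for all genes; right, the median log2 fold change of each list in the fit of 11 libraries (filled) and without 3 h replicate 1 (open). NB identity stands at 10 of 23 lower, and of the lists drawn the cytosolic ribosomal proteins (0.00 with that library, -0.53 without it) and the Notch targets (0.33 and -0.14) move most.

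How a gene changed went with how abundant it was. Among 4111 genes under 5 CPM, 236 rose and 0 fell, and 75.8% had a positive log2 fold change (median 0.56). Among 1890 genes of 5 to 20 CPM, 99 rose and 22 fell, with a median of -0.02. Among 2971 genes of 20 to 100 CPM, 15 rose and 78 fell, with a median of -0.18, and among 1893 genes of at least 100 CPM, 4 rose and 37 fell (median -0.14). Under upper-quartile scaling the medians of the 4 bands, from low to high, were 0.76, 0.16, 0.003 and 0.043, so the sign of the upper 3 depends on the scaling. Genes that rose had a median level of 2.91 CPM, genes that fell 45.7 CPM and all genes 13.9 CPM. Reads in no gene were also more frequent at 3 h (11.8% to 17.7%, against 9.20% to 12.3% at 1.5 h) and the libraries shallower; the part of either in the excess of rising low genes was not tested. With every library thinned to 6899670 counts, an alternative added after seeing the data, 194 genes rose and 57 fell. Of 766 noncoding CR genes tested, 46 rose and 1 fell (CR45919), with a median of 0.43, where 3.26% of all genes rose. Among genes under 5 CPM of any kind 5.74% rose, with a median of 0.56, so the CR count is near the share of low genes. Without 3 h replicate 1, 112 rose and 2 fell, where 934 of 10988 genes rose. CR44829 had 2.96, 5.27 and 2.39 CPM at 3 h, against 0.240, 0.174 and 0.249 CPM at 1.5 h, and CR45157 had 6.38, 12.7 and 7.47 CPM at 3 h, against 1.2, 1.1 and 1.83 CPM at 1.5 h. Neither overlapped between ages. CR43283, an abundant noncoding RNA of NBs, was at 63440, 40150 and 34610 CPM at 3 h, against 46610, 45960 and 35250 CPM at 1.5 h, with overlapping values (edgeR adjusted p = 0.864). Among low protein-coding genes, Cpr64Ac, a cuticle protein gene, CG11893 and CG5065 had log2 fold changes of 4.45, 4.09 and 2.3. Of these 3 and CR44829, CR45157 and CR45919, 6 held without 3 h replicate 1, 5 without 3 h replicate 2, 5 without 3 h replicate 3, 5 without 1.5 h replicate 1, 6 without 1.5 h replicate 3 and 0 without 1.5 h replicate 2 (edgeR adjusted p 0.0537 to 0.099).

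**Figure D4:**
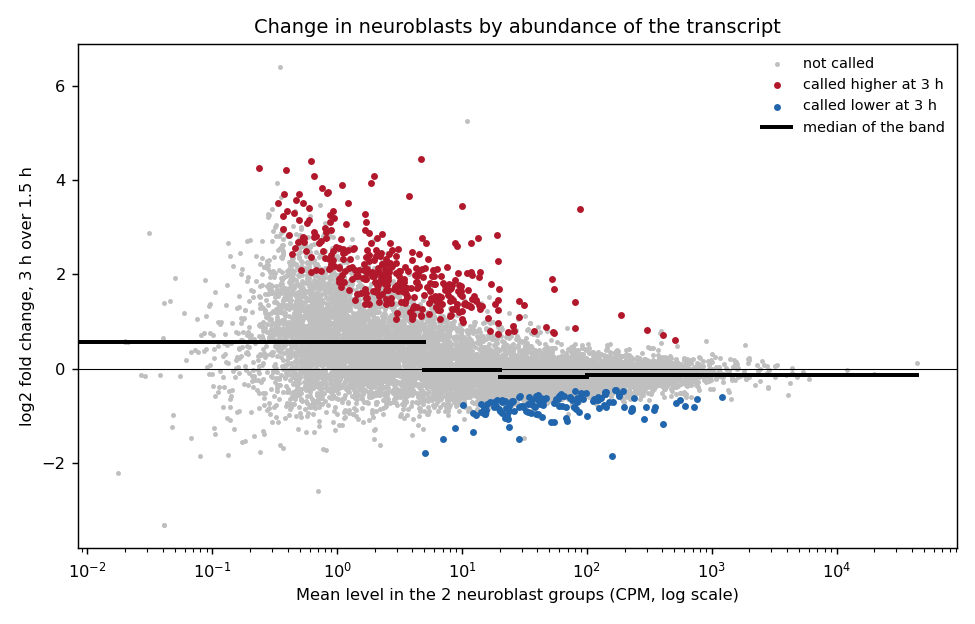
Log2 fold change in NBs, 3 h over 1.5 h, of the 10865 genes tested against their mean level in CPM (log axis), with genes called higher in red, called lower in blue and the rest in grey; black bars are the medians of 4 bands of level. The median is 0.56 under 5 CPM and below 0 in the other bands under TMM scaling (above 0 in all 4 under upper-quartile scaling), and no gene under 5 CPM was called lower.

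The GMC libraries of each age shared the flow cell of the NB libraries of that age, so both cell types carry the same overlap of age and run. The GMC groups held 2 libraries of 3 h, with 6899670 and 15114163 counts in genes, and 3 of 1.5 h. In GMCs 1184 genes (10.9%) were called between 3 h and 1.5 h, 680 higher (6.26%) and 504 lower (4.64%). Of the 491 NB calls, 247 were called in GMCs in the same direction, which is 50.31% of the NB calls and 20.86% of the GMC calls, and 443 had the same sign. The difference between the changes of the 2 cell types was called for 0 genes by edgeR, with 1074 at an unadjusted p under 0.05, and for 85 by DESeq2. ImpL3, CG1673 and Pex7 had log2 fold changes of 2.88, 3.47 and -1.51 in GMCs, near their NB values. Of the 23 NB identity genes, 9 fell and 3 rose in GMCs (median -0.32). Of 54 DNA replication genes, 18 fell and 2 rose in GMCs (median -0.47). Of 66 mitosis genes, 6 fell and 2 rose there (median -0.19). The fall of these lists was thus not particular to NBs in these libraries, though the GMC side rests on 2 libraries of 3 h. Only wor and nrv3 were called in opposite directions: wor had 0.58 in GMCs (edgeR adjusted p = 0.0361) and nrv3 -1.16 (0.0304), beside -0.82 and 2.53 in NBs. The difference itself did not pass for either (edgeR adjusted p = 0.102 and 0.0743).

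**Figure D5:**
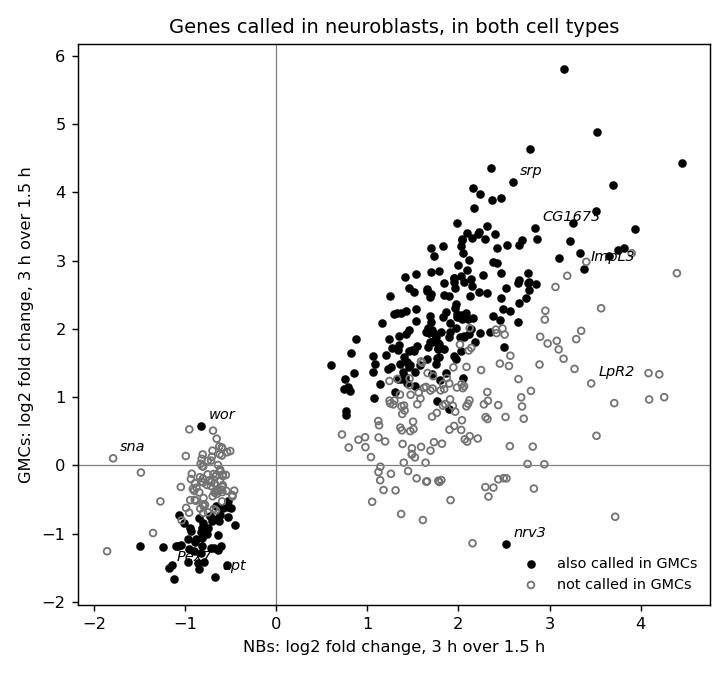
Log2 fold change, 3 h over 1.5 h, in GMCs against that in NBs for the 491 genes called in NBs; filled points were also called in GMCs. Of the 491, 443 lie in the quadrants of equal sign, and wor and nrv3 are the 2 filled points of opposite sign.

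In NBs of 5 h, read with the GMCs of 5 h on a further flow cell and low in Dcr-2, the genes did not all go on in the direction of 3 h. Scaled over all 16 libraries, brk had 45.6, 39.7 and 39.8 CPM at 1.5 h, 14.1, 13.9 and 16.4 CPM at 3 h, and 4.78, 6.06 and 6.52 CPM at 5 h. It was lower at each later age without overlap. The level of nerfin-1 was 1.43, 2.29 and 3.29 CPM at 1.5 h, 8.13, 14.7 and 7.75 CPM at 3 h, and 48.1, 40.1 and 99.7 CPM at 5 h, higher at each later age without overlap. For mira the 5 h values of 1349, 1761 and 1388 CPM overlapped the 1.5 h values of 1271, 1687 and 1398 CPM, and klu, at 367, 528 and 454 CPM, lay above every 3 h library. CG1673 and LpR2 were at 2.91 and 3.33 CPM in 5 h replicate 1, against 28.0 and 45.0 CPM in replicate 2 and 20.6 and 44.0 CPM in replicate 3, so the 5 h libraries differed among themselves.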

How the data were processed

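Poly(A) RNA was measured in 16 libraries, made per the labels' protocols from oligo(dT)-primed cDNA by Nextera tagmentation with random octamers as molecular barcodes. No source says if the octamers entered the counting. The deposited values are raw counts per gene for 16364 genes with 5 summary entries, which stayed out of the tests. HTSeq 0.6.1, TopHat2 2.1.1, BWA 0.7.12, DESeq2 1.12.4 and bedtools 2.26.0 are named in the submitters' processing notes, without roles. For the genome build, annotation and strand use: not given in the sources used here. Gene symbols come from the authors' deposited tables, whose mean signal over libraries was not used as a result. Positions are also from those tables. Ensembl release 115 (BDGP6) held 16208 of the genes, 16086 with the same start and end, and gave the exon overlaps.

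The test was the quasi-likelihood test of edgeR 4.0.16 in R 4.3.3 (with limma 3.58.1), with TMM scaling, filterByExpr (minimum count 10, total 15; 5499 genes removed), on 11 libraries in 4 groups. This fit was chosen with it known that the 5 h NB libraries were unlike one another in earlier results of these data. The members, lists and tests were likewise chosen with earlier results known. Alternatives include DESeq2 1.42.0. The SE is implied by the test's F. Genes named by rule are those called in the fit of 16 libraries, the 15 largest changes each way of at least 20 CPM without overlap, up to 3 per list, and a fixed set (140 genes). The text gives part of the 140. All other genes named were chosen after their values were seen or as markers, also where this is not said beside them. Among these are SoxN, apt, sna, Xrp1, DopEcR, Cdc7, ncd, gwl and Fbp1. List members not tested had low counts or no match. On simulated data with 10865 genes, 200 of them changed, 66% of 2-fold and 96% of 4-fold changes were recovered, with 5.26% false calls. The changed genes were drawn from those with a mean over 5 CPM, while 236 of the genes that rose lay under 5 CPM. The recovery therefore does not cover those genes. No outlying library or run effect was simulated, so neither rate covers these. P-values are two-sided.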

Additional observations from a re-analysis of the deposited data

How the results depend on the processing

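The count of 491 genes called between 3 h and 1.5 h was 11 with all 16 libraries, 152 with the 6 NB libraries, 1111 with DESeq2, 738 with the gene-length trend removed and 251 with every library thinned to the smallest, the last chosen after seeing the data. It ranged from 5 to 1428 when each NB library was left out in turn. Median-ratio scaling, upper-quartile scaling, no filter and the stricter filter gave 474, 512, 507 and 473. The difference between NB and GMC changes was called for 0 genes, for 85 by DESeq2, for 1 without a filter, for 3 with a replicate block, for 1 with the length trend removed and for 0 to 10 with a library left out. The GMC count of 1184 was 323 with 16 libraries and 1803 with DESeq2, and ranged from 146 to 2019 with a library left out. The cause was not tested in any of these.

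With a replicate block the NB count was 669 (381 higher, 288 lower). Same-numbered libraries of 3 h and 1.5 h correlated at 0.667, 0.00358 and 0.453 in their deviations, and 3 h replicate 2 correlated best with 1.5 h replicate 3 (0.607), so the numbers were not taken to pair the samples. Of 80 called genes named in the text 0 changed sign under any alternative. Signs turned in uncalled genes. With a library left out in turn, log2 fold changes ranged from -0.229 to 0.0282 for ase, -0.0836 to 0.269 for elav, -0.264 to 0.245 for Dcr-2, -0.194 to 0.28 for CR43283, -0.319 to 0.121 for w and -0.26 to 0.0998 for N. Upper-quartile scaling gave 0.09995 for ase, 0.0984 for N and 0.0658 for w; the fit of 6 NB libraries gave 0.0100 for ase. Dcr-2, which a transgene carries, had -0.031 without a filter and -0.0247 with the replicate block. At 8160101 to 11378787 counts, a gene of 1 CPM rests on about 10 reads per 3 h library.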

Other observations

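Further groups of genes, gathered after their values were seen, are given as values. Of 11 dopamine genes tested, 5 rose at 3 h and 0 fell, where 3.26% of all genes rose; without 3 h replicate 1, 8 rose and 1 fell. The tyrosine hydroxylase gene ple had 8.09, 13.3 and 7.39 CPM in NBs of 3 h, against 2.65, 1.51 and 3.11 CPM in NBs of 1.5 h, and Ddc, the next enzyme, had 9.34, 13.1 and 10.2 CPM at 3 h, against 2.50, 3.13 and 3.65 CPM at 1.5 h. Neither overlapped between ages (log2 fold changes 1.97 and 1.81), and the transporter genes DAT and prt had 1.35 and 2.02. Of 22 Polycomb group genes 6 fell and 0 rose, where 1.26% of all genes fell, among them ph-p, Psc, esc, phol and corto, with log2 fold changes of -0.50, -0.92, -0.65, -0.82 and -0.80. Under upper-quartile scaling 1 of the 22 fell. In the EGFR pathway (19 genes) the receptor gene Egfr and the repressor gene aop fell (-0.95 and -0.79) and the ligand-processing protease genes rho and stet rose (1.97 and 1.82), 2 of 19 each way, beside 1.26% lower and 3.26% higher over all genes. The acetylcholine receptor gene nAChRalpha6, the neuroligin gene Nlg2 and dimm, a factor of neurosecretory cells, had 1.76, 2.1 and 2.14.

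Without 1.5 h replicate 2, 0 of these 16 genes held by edgeR, with adjusted p of 0.0537 to 0.165 for the dopamine genes, 0.0866 to 0.208 for Polycomb, 0.088 to 0.165 for EGFR and 0.0537 to 0.0929 for the last 3. Without 3 h replicate 1 all 16 held. Of the 4 dopamine genes named, 1 held without 1.5 h replicate 1, 2 without 1.5 h replicate 3, 1 without 3 h replicate 2 and 3 without 3 h replicate 3. Of the 4 EGFR genes the counts were 1, 3, 1 and 4 in the same order, and of the last 3 genes 2, 3, 2 and 3. Of the 5 Polycomb genes, 0 held without 3 h replicate 2 and 1 without each of 3 h replicate 3, 1.5 h replicate 1 and 1.5 h replicate 3.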
